A study of Mus musculus with 38 samples.

Results

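The pulldowns of neurons treated with DHPG, which activates metabotropic glutamate receptors (mGluRs) of group I, were compared with the pulldowns of resting neurons, both taken with a biotin ligase placed at the postsynaptic density by PSD95 (TurboID-PSD95). The members were chosen by their titles, DHPG_pd with 3 libraries and REST_PSD95_pd with 3 libraries, so 6 of the 38 libraries of the series. Each library holds ribosome footprints, the mRNA fragments that ribosomes shield from nuclease, from complexes that streptavidin recovered after biotin labelling (PL-Ribo-seq). Pulldown was set against pulldown, and the 6 matching inputs, which hold the footprints of the whole culture, stand beside them.

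The neurons of both groups were primary cortical cultures from embryos of CD-1 mice, transduced with a lentivirus that carries PSD95-TurboID under doxycycline control, and all received cycloheximide for 2 min and then biotin, for 30 min by the labels. The methods of the study give a shorter biotin time for DHPG. The DHPG cultures were first silenced with tetrodotoxin and DL-AP5 for 2 h and then received 100 µM DHPG for 10 min. The resting cultures received cycloheximide and biotin, and the labels name no silencing for them. For comparison, 3 pulldowns came from KCl cultures, silenced for 2 h and then depolarised with 55 mM KCl for 1 h, and 2 resting pulldowns from cultures given 20 nM siRNA against Eif4g2 for 72 h. All of them received cycloheximide and biotin, and the labels name PSD95-TurboID as their virus. The descriptions of resting, DHPG and KCl pulldowns name the PSD, while those of the siRNA pulldowns and of the DHPG inputs name the cytosol, a conflict with the virus that was not resolved. The construct is driven by an inducible Tet-On promoter, and the methods name no restriction to a cell type.

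Group I mGluRs, among them mGluR5 (gene Grm5), couple through Gq proteins to phospholipase C, release of calcium from stores and protein kinase C. In hippocampal and cortical neurons they drive a form of long-term depression that needs new protein synthesis in dendrites, and mRNAs of Arc, Map1b and App are among those known to be translated in it. FMRP, the product of Fmr1, binds many dendritic mRNAs and restrains their translation.

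The coding sequences (CDSs) of the longest transcript of each gene held 8406982 to 13434993 counts in DHPG pulldowns and 2047169 to 7149160 in resting pulldowns, so resting levels carry the larger counting error. Replicates differed by more than sampling noise in both groups. The SD of the log2 ratio between replicate libraries across genes was 0.25 to 0.30 for DHPG pulldowns and 0.62 to 0.65 for resting pulldowns. For inputs it was 0.225 to 0.229 for DHPG and 0.527 to 0.586 at rest. The main fit estimated 1 spread per gene over pulldowns and inputs of both groups, to which the tighter DHPG libraries contribute. Per the file headers, each resting replicate came from a processing run of its own, while the 3 DHPG replicates came from 1 later run. Treatment, experiment, processing run and, by the labels, silencing therefore coincide. What DHPG, the silencing and the experiment did cannot be told apart in any value below. The study describes replicates of this assay as biologically independent samples, while the labels do not tie the libraries to cultures. The p-values measure only the spread between these libraries.

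Markers of astrocytes, of the oligodendrocyte lineage, of fibroblasts and of progenitors were mostly lower in DHPG than in resting pulldowns. In inputs, 12 of 14, 7 of 10, 5 of 8 and 14 of 18 tested markers of these lists were lower. Of 15 astrocyte markers, 14 were tested in pulldowns and 13 were lower, with a median log2 fold change of -2.36. Their summed level, in CPM (counts scaled to a common depth of CDS counts) without further scaling, was 1343 to 2863 in resting and 454 to 474 in DHPG pulldowns, and S100b was at 0 in both groups. Slc1a3, the astrocytic glutamate transporter GLAST, stood in resting replicates 1 to 3 at 423, 355 and 183 CPM, here scaled by the trimmed mean of M values (TMM) like all levels of single genes below unless stated. It stood at 50.6, 47.4 and 45.4 CPM in DHPG replicates 1 to 3, a log2 fold change of -2.76 (SE 0.27, FDR 5.53e-06) by edgeR's quasi-likelihood test, which is meant by every FDR below unless another test is named. No DHPG library reached the lowest resting library. In bulk libraries, fewer cells of a type and less RNA per cell cannot be told apart.

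Markers of the oligodendrocyte lineage, of fibroblasts and of progenitors were also mostly lower. Of 14 oligodendrocyte lineage markers, 10 were tested and 8 were lower, and the summed level was 182 to 582 CPM at rest and 42.3 to 52.2 CPM after DHPG, with Mobp at 0 in resting and Mog and Mobp at 0 in DHPG pulldowns. Of 11 fibroblast and meningeal markers, 8 were tested and 5 were lower, with summed levels of 473 to 1309 CPM at rest and 203 to 218 CPM after DHPG, and Tbx18 at 0 at rest. All 18 markers of progenitors and cell cycle were tested and 13 were lower, with summed levels of 375 to 683 CPM at rest and 188 to 199 CPM after DHPG. Of 13 microglia markers 2 were tested and none was called, with summed levels of 27.2 to 47.6 CPM at rest and 23.7 to 27.7 CPM after DHPG, and 4 markers at 0 at rest (Tmem119 and C1qb among them) and 3 after DHPG (P2ry12 and C1qb among them). Of 11 endothelial and mural markers 4 were tested and 2 were lower. Their sums overlapped, at 44.5 to 404 and 38.5 to 45.9 CPM, with Kcnj8 at 0 in both groups and Cldn5 at 0 after DHPG. None of the 15 pan-neuronal and 16 cortical excitatory markers was at 0. The pan-neuronal sum overlapped between the groups, at 9759 to 10248 CPM at rest and 9644 to 10031 CPM after DHPG, although 10 of the 15 members were lower. The excitatory sum overlapped as well, at 2162 to 2430.2 and 2257 to 2443 CPM, with 5 members higher and 6 lower. GABAergic interneuron markers summed to 2103 to 3249 and 1856 to 1947 CPM, with 3 of 14 tested higher and 4 lower, shares near the 21.7% and 26% of all genes, and Pvalb at 0 at rest. The part of this shift in the results on single genes below was not tested.

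**Figure D1:**
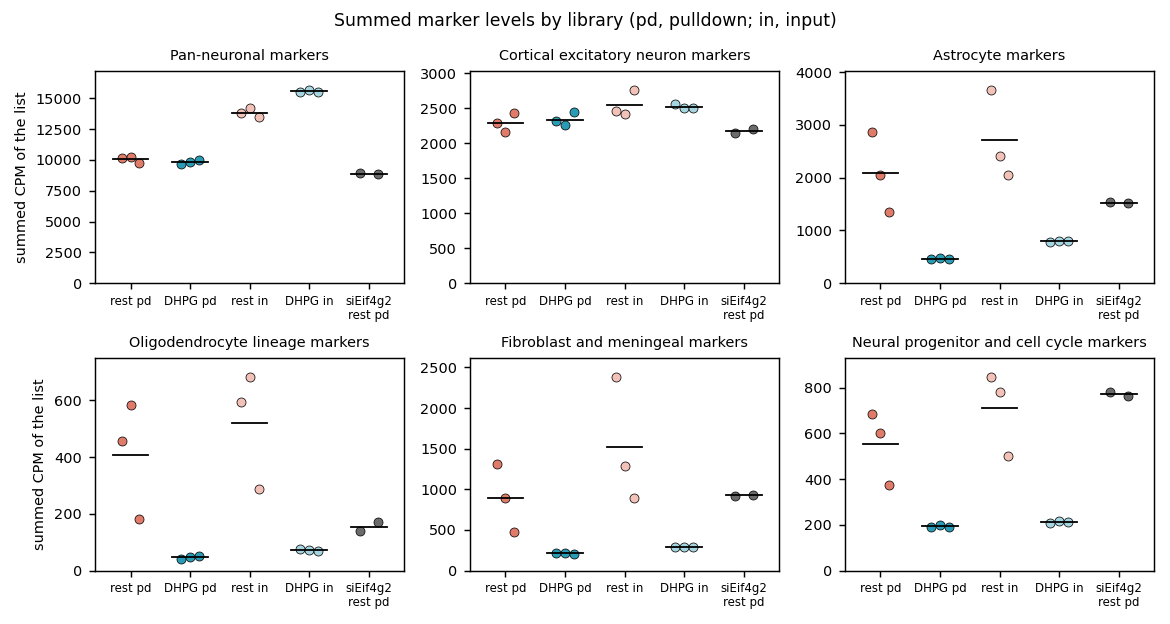
Summed CPM (not TMM-scaled, axes start at 0) of 6 marker lists in each library, as points, with a line at the group mean, for resting and DHPG pulldowns and inputs and for resting pulldowns with Eif4g2 siRNA. Astrocyte, oligodendrocyte, fibroblast and progenitor sums of the DHPG libraries lie below those of all resting libraries, while neuronal sums of the DHPG and the untreated resting pulldowns overlap.

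Dlg4 encodes PSD95, to which the ligase is linked. It took 0.202% of CDS counts in resting pulldowns and 0.114% in DHPG pulldowns, against 0.0159% and 0.0146% in the inputs. Its level was 1470.1, 1365 and 2954 CPM in resting replicates 1 to 3 and 1397, 1231 and 1231 CPM in DHPG replicates 1 to 3, and the log2 fold change was -0.58 (SE 0.25, FDR 0.0730). The difference did not pass. Resting replicate 3, the shallowest library, was the highest, and without it the value was -0.13 (FDR 0.419). It passed without resting replicate 1 (-0.74, FDR 0.0304) or 2 (-0.77, FDR 0.0260), with the likelihood ratio test (FDR 0.0436) and over genes with a mean log2 CPM of at least 4 (FDR 0.0304). Reads of the Dlg4 elements in the ligase construct cannot be told apart from those of the endogenous gene. The level of Dlg4 therefore does not check how well postsynaptic ribosomes were recovered.

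Of 12787 genes tested, 2780 were higher (21.7%) and 3320 lower (26%) in DHPG pulldowns at an FDR under 0.05. The change was at least 2-fold for 851 higher and 1543 lower genes, and the median log2 fold change of all genes was -0.09. The CPM values of the groups did not overlap for 6725 genes (52.6%), so non-overlap alone does not set a gene apart, here or in the paragraphs above and below. In the matching inputs 2081 genes were higher (16.3%) and 2115 lower (16.5%). Counts of list members against untreated rest, above and below, are to be read beside these shares of all genes. The question of the comparison, which mRNAs gain or lose ribosomes near the postsynaptic density after mGluR activation, is thus asked against a background in which 6100 of the 12787 genes passed. In footprint counts, the amount of an mRNA and the ribosomes on each copy cannot be told apart.

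Among the genes named for the smallest p-values of the rise were regulators of chromatin and transcription. Gse1 encodes a nuclear protein of a histone deacetylase co-repressor complex (CDS in mm10, chr8:120489115-120578603). It stood at 33.3, 30.0 and 27.5 CPM in resting replicates 1 to 3 and at 267, 233 and 274 CPM in DHPG replicates 1 to 3, a log2 fold change of 3.07 (SE 0.14, FDR 2.08e-10). Kif26a, an atypical kinesin (chr12:112146365-112180632), rose from 17.2, 17.9 and 10.7 CPM to 134, 134 and 161 CPM, which is 3.17 (SE 0.18, FDR 3.24e-09) on the log2 scale. The lowest DHPG library of either gene exceeds the highest resting library several times over. Ier5, an immediate early gene with a role in the heat shock response, rose from 43.7, 52.9 and 40.1 to 232, 226 and 288 CPM (log2 fold change 2.44, SE 0.14, FDR 3.27e-09). Ahdc1, a DNA-binding protein gene mutated in Xia-Gibbs syndrome, rose from 144, 123.3 and 112 to 619, 598 and 674 CPM (log2 fold change 2.31, SE 0.12, FDR 1.06e-09). Kdm5b, a histone H3K4 demethylase, rose from 310.1, 312 and 300.1 to 1019, 974 and 936 CPM (log2 fold change 1.67, SE 0.09, FDR 3.09e-09).

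The others included genes of the cytoskeleton and of signalling at the membrane. Myo16, an unconventional myosin of neurons, went from 207, 214 and 231 to 845, 823 and 867 CPM and Psd, an exchange factor for Arf6, from 148, 152 and 185 to 492, 492 and 543 CPM, with log2 fold changes of 1.96 (FDR 4.80e-10) and 1.66 (FDR 1.68e-08). Hecw1, an E3 ubiquitin ligase, and Frmd4a, a scaffold of cell polarity, had log2 fold changes of 1.56 (FDR 5.76e-09) and 1.72 (FDR 5.94e-09). Mast1, a microtubule-associated kinase, went from 267, 244 and 281 to 707, 695 and 799 CPM, and Camta1, a calmodulin-binding transcription activator, from 236, 223 and 238 to 574, 573 and 606 CPM. Their log2 fold changes were 1.48 (FDR 2.51e-08) and 1.33 (FDR 2.80e-08). The 11 genes described were also higher in the inputs except Mast1, whose input value was 0.19 (FDR 0.143). Against resting pulldowns of the same processing run as DHPG, which carry siRNA against Eif4g2 and are described below, the 11 were higher by less, from 0.23 (FDR 0.0117) for Frmd4a to 1.94 (FDR 2.54e-11) for Kif26a. Gse1 already stood at 174 and 168 CPM and Myo16 at 623 and 625 CPM in those resting libraries, against 238, 208 and 241 and 753, 733 and 761 CPM after DHPG, all without TMM scaling.

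The 12 genes named for the fall included secreted proteins, matrix proteins and residents of the endoplasmic reticulum. Mfge8, a secreted bridge for phagocytosis made by astrocytes among other cells (chr7:79134409-79148967), stood at 232, 225 and 172 CPM in resting replicates 1 to 3 and at 22.2, 23.1 and 24.4 CPM in DHPG replicates 1 to 3, a log2 fold change of -3.18 (SE 0.13, FDR 1.10e-10). Collagen I chains were nearly absent after DHPG. Col1a1 went from 81.5, 124 and 71.3 to 2.14, 3.70 and 3.99 CPM (log2 fold change -4.78, SE 0.23, FDR 4.80e-10), and Col1a2 from 35.1, 31.4 and 21.9 to 0.133, 0.308 and 0.339 CPM (log2 fold change -6.69, SE 0.40, FDR 7.45e-09). Both collagens are on the fibroblast list above. The granins of dense core vesicles, which neurons secrete with neuropeptides, fell as well. Chgb (chr2:132781734-132794829) went from 607, 695 and 646 to 112, 131 and 127 CPM (log2 fold change -2.40, SE 0.10, FDR 1.10e-10), and Scg2 from 956, 1202 and 1109 to 224, 268 and 244 CPM (log2 fold change -2.15, SE 0.12, FDR 2.64e-09). Nfil3, a bZIP repressor, was tight at 107, 108 and 108 CPM at rest and at 22.0, 22.4 and 24.4 CPM after DHPG (log2 fold change -2.23, SE 0.11, FDR 5.05e-10).

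The remaining named falls were in adhesion and protein folding, and in the transcription factor Sox5. Cdh2, the adherens junction protein N-cadherin, went from 413, 491 and 416 to 113, 150.3 and 157 CPM, and Cd47, the "do not eat me" signal of the cell surface, from 397, 473 and 388 to 151, 149.8 and 139.9 CPM. The disulfide isomerases Pdia4 and P4hb and the calcium-binding protein Calu, all of the endoplasmic reticulum, had log2 fold changes of -1.49 (FDR 2.80e-08), -1.69 (FDR 5.46e-08) and -1.43 (FDR 3.00e-08). Sox5, known from deep-layer neurons and from glia, had -1.81 (FDR 2.58e-08). All 12 genes were lower in the inputs too, from -0.46 for Calu to -6.65 for Col1a2 on the log2 scale. Against the siRNA group of the same processing run all but Sox5 (-0.11, FDR 0.578) were lower as well, Mfge8 with -2.78 (FDR 5.59e-17), Nfil3 with -1.94 (FDR 6.84e-13) and Chgb with -0.71 (FDR 5.54e-08).

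**Figure D2:**
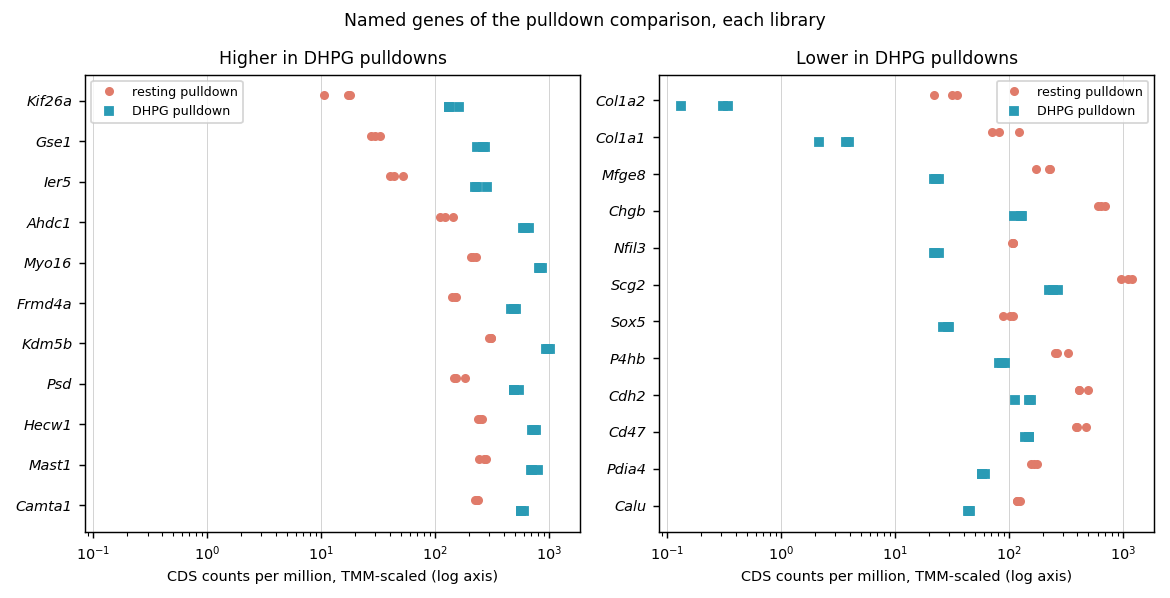
TMM-scaled CPM (log axis) of 11 higher and 12 lower genes named by rule, with a circle for each resting and a square for each DHPG pulldown. Genes are ordered by the size of the fold change, and the groups do not overlap for any of them, which the rule required.

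The receptor mGluR5, which DHPG activates, was itself higher. Grm5 (chr7:87602544-88130869) stood at 323, 334 and 333 CPM in resting replicates 1 to 3 and at 646, 674 and 652 CPM in DHPG replicates 1 to 3, a log2 fold change of 0.99 (SE 0.09, FDR 2.50e-07). The 3 DHPG libraries lie above the 3 resting libraries, and the inputs gave 0.92 (FDR 1.48e-06). Pulldown groups did not overlap for 52.6% of all genes. Over the 37 genes of group I mGluR signalling, 14 were higher, 8 lower and 15 did not pass, with a median of 0.12. The shares stand against 21.7% higher and 26% lower of all genes.

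Lipid and protein kinases of the pathway were among the members that rose, and regulators of G protein signalling among those that fell. Dgkh and Dgkz, kinases that remove diacylglycerol, had log2 fold changes of 1.34 (FDR 6.51e-08) and 0.94 (FDR 1.47e-05), and Prkcb, protein kinase C beta, went from 136, 129.5 and 138 to 308, 304 and 279 CPM (1.14, FDR 2.47e-07). Rgs2, which turns off Gq, went from 135, 255 and 107 CPM in resting replicates 1 to 3 to 26.8, 31.1 and 34.2 CPM in DHPG replicates 1 to 3, a log2 fold change of -2.43 (SE 0.35, FDR 2.13e-04). Rgs4, of the same family, went from 89.7, 132 and 58.3 to 33.2, 35.3 and 34.3 CPM (-1.47, FDR 2.67e-04). Resting values of both spread over 2-fold, yet the DHPG values lie below all of them. Homer3, a scaffold that ties mGluRs to calcium stores, was low in both groups (8.67, 7.29 and 7.92 CPM at rest and 3.07, 2.26 and 2.38 CPM after DHPG) with -1.64 (FDR 2.43e-04), and Cabp1, a calcium sensor, had -1.01 (FDR 0.00117).

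Of 35 genes known from mGluR-dependent translation and long-term depression, 24 were higher, 3 were lower and 8 did not pass, with a median of 0.47. In the inputs 14 were higher and none lower. The shares of all genes in pulldowns were 21.7% higher and 26% lower. Map1b (chr13:99425806-99516487), a microtubule-associated protein, had a high footprint count, which is not corrected for CDS length. It stood at 9811, 11259 and 13364 CPM in resting replicates 1 to 3 and 31133, 29748 and 30395 CPM in DHPG replicates 1 to 3. Its log2 fold change was 1.41 (SE 0.10, FDR 4.95e-08) in pulldowns and 0.70 (FDR 6.59e-05) in inputs, and the difference of both was 0.71 (FDR 0.00780). Against the resting siRNA group Map1b was lower after DHPG, as given below. Without TMM scaling it stood there at 43146 and 44468 CPM, against 26502 to 27746 CPM after DHPG. Camk2a, the alpha subunit of the calcium kinase CaMKII, stood at 245, 166 and 157 and at 702, 679 and 737 CPM (log2 fold change 1.89, SE 0.16, FDR 2.08e-07), and its input value of 1.87 left a difference of 0.02 (FDR 0.975). Cyfip2, of the WAVE complex, had 0.89 (FDR 7.27e-07), and Tsc1, which restrains mTORC1, had 1.37 (FDR 9.78e-07) in pulldowns against 0.19 (FDR 0.314) in inputs. The members that fell were Fmr1 (53.3, 66.0 and 38.7 to 25.9, 21.9 and 23.3 CPM, -1.18, FDR 2.80e-05), App (-1.10, FDR 5.84e-05) and Eif4ebp2, an inhibitor of cap-dependent initiation (-0.84, FDR 0.0300). Eif4ebp2 no longer passed when DHPG replicate 1 or 2 or resting replicate 2 or 3 was left out (FDR 0.0603 to 0.295), with the CDS length trend removed (-0.39, FDR 0.291), with the 6 pulldowns alone, with the KCl libraries or with limma-voom (FDR 0.0647 to 0.135).

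Most immediate early genes were lower after DHPG than at rest, and 4 were higher. Of 36 rapid immediate early genes, 35 were tested, 21 were lower, 4 were higher and 10 did not pass, with a median of -1.48. The inputs held 22 lower and 4 higher. The shares of all genes in pulldowns were 26% lower and 21.7% higher. Fos (chr12:85474040-85476458) stood at 73.5, 212 and 155 CPM in resting replicates 1 to 3 and at 15.6, 14.9 and 18.5 CPM in DHPG replicates 1 to 3, a log2 fold change of -3.15 (SE 0.44, FDR 2.92e-04). The resting values spread almost 3-fold, and the lowest of them is still several times the highest DHPG value. Npas4, an activity-dependent transcription factor of neurons, went from 38.8, 66.0 and 75.0 to 8.14, 9.86 and 9.76 CPM (-2.66, FDR 1.65e-07), and Egr1 from 66.4, 79.1 and 122.6 to 30.0, 30.5 and 35.0 CPM (-1.45, FDR 1.39e-04). Nr4a3, a nuclear receptor, had -1.72 (FDR 2.06e-07), Klf6 -1.14 (FDR 1.10e-06) and Dusp1, a phosphatase of MAP kinases, -1.48 (FDR 2.50e-07).

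The rises included the dendritic mRNA Arc. It stood at 6.08, 11.04 and 8.39 CPM in resting replicates 1 to 3 and at 21.4, 17.7 and 22.5 CPM in DHPG replicates 1 to 3, a log2 fold change of 1.29 (SE 0.23, FDR 2.27e-04), and the input value was 1.30. Egr3 went from 5.82, 5.00 and 8.39 to 21.6, 26.7 and 22.4 CPM (1.96, FDR 1.36e-06). Ier5 was described above. Klf10 stood at 15.7, 21.7 and 2.80 and 33.1, 30.5 and 31.7 CPM (1.11, FDR 0.0384), with resting replicate 3 far below the other two. Its call was lost without any 1 of the DHPG replicates or resting replicate 1 (FDR 0.0614 to 0.0750) and without the filter on low counts (FDR 0.0688). Of 25 delayed activity-regulated genes, 14 were lower and 4 higher, with a median of -0.98. Bdnf, the neurotrophin, fell from 52.1, 76.4 and 49.9 to 14.01, 14.6 and 14.3 CPM (-2.06, FDR 4.36e-07), while Plk2 rose from 211, 281 and 204 to 435, 431 and 404 CPM (0.87, FDR 3.75e-05), Sik1 had 0.92 (FDR 3.31e-04) and Nptx1 0.67 (FDR 0.00764). Rheb, the small GTPase that activates mTORC1, had 0.48 (FDR 0.0217), and no longer passed without DHPG replicate 1 or 2 or resting replicate 2 or 3 (FDR 0.0562 to 0.0667), over genes with a mean log2 CPM of at least 4 (FDR 0.0523) or with limma-voom (FDR 0.0979). Astrocytes and fibroblasts can express Fos, Egr1, Dusp1 and Klf6 as well, and most tested markers of both were lower as given above. By the labels only the DHPG cultures of this comparison were silenced, for 2 h. The part of other cell types or of silencing in these falls was not tested.

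KCl, which depolarises neurons and was given at 55 mM for 1 h, was compared with the same resting pulldowns, so both comparisons share them. Fos had a log2 fold change of 3.38 (FDR 7.64e-06), Npas4 2.59 (FDR 2.65e-06), Egr1 4.10 (FDR 3.23e-08) and Arc 3.59 (FDR 1.67e-08) after KCl. The direct test of DHPG against KCl pulldowns gave -6.49 (FDR 1.79e-09) for Fos, -5.22 (FDR 2.90e-10) for Npas4, -5.53 (FDR 2.91e-10) for Egr1 and -2.25 (FDR 3.34e-07) for Arc. DHPG and KCl differ in dose, time and experiment, so these values stand side by side only. From qPCR of Arc, Fos and Jun, the study reports that immediate early gene expression was similar after KCl and after DHPG. That assay measured total RNA, while the values here are ribosome footprints compared between separate experiments. Why the 2 measures differ was not tested.

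**Figure D3:**
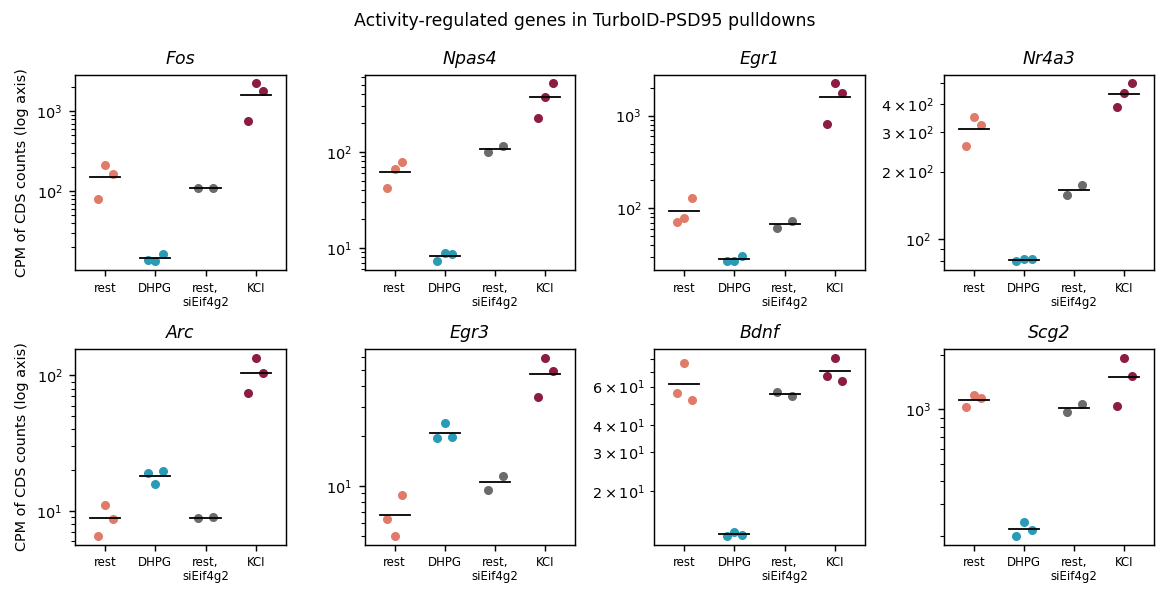
CPM (not TMM-scaled, log axes) of 8 activity-regulated genes in each TurboID-PSD95 pulldown, as points with a line at the group mean, at rest, after DHPG, at rest with Eif4g2 siRNA and after KCl. Fos, Npas4, Egr1, Nr4a3, Bdnf and Scg2 are lowest after DHPG, while Arc and Egr3 lie between both resting groups and KCl.

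Most scaffolds of the postsynaptic density were higher, beside 21.7% higher and 26% lower of all genes in pulldowns. Of 27 tested, 18 were higher, 5 lower and 4 did not pass, with a median of 0.60, where the inputs held 5 higher and 2 lower with a median of 0.11. Against the resting siRNA group 10 were higher and 7 lower, with a median of 0.09. Kalrn, an exchange factor for Rac in spines, stood at 82.7, 69.1 and 82.5 CPM in resting replicates 1 to 3 and at 175, 157 and 175 CPM in DHPG replicates 1 to 3, a log2 fold change of 1.11 (SE 0.11, FDR 1.12e-06). Dlgap1, which links PSD95 to Shank, went from 87.6, 80.0 and 104.8 to 192, 182 and 180.3 CPM, with 1.03 (FDR 3.23e-06) in pulldowns and 0.27 (FDR 0.0913) in inputs. Iqsec1, an exchange factor for Arf6, had 0.92 (FDR 3.37e-06) in pulldowns and 0.11 (FDR 0.421) in inputs. Sipa1l1, which regulates spine actin, had 1.07 (FDR 3.70e-06) and 0.37 (FDR 0.0264). The groups do not overlap for any of these 4, as for 52.6% of all genes. Homer1 and Homer3 fell, as did the PSD95 relatives Dlg1 (64.2, 77.3 and 80.2 to 41.2, 41.9 and 32.1 CPM, -0.94, FDR 2.99e-04) and Dlg3 (-0.52, FDR 0.00236, but 0.0883 in a fit with the KCl libraries), and the actin-binding Ppp1r9a (-0.63, FDR 0.00214).

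More AMPA and GABA receptor genes were higher than lower, beside 21.7% higher and 26% lower of all genes in pulldowns and 16.3% and 16.5% in inputs. Of 18 AMPA receptor subunits and auxiliaries, 9 were higher and 2 lower in pulldowns and 6 and 2 in inputs, with medians of 0.49 in pulldowns and 0.48 in inputs. Gria1 went from 314, 309 and 377 to 569, 565 and 559 CPM (0.76, FDR 2.54e-05) and Gria2 from 971, 768 and 1008 to 1385, 1386 and 1130.3 CPM (0.51, FDR 0.00285). The auxiliaries Cnih2 and Shisa7 had 1.19 (FDR 7.95e-05) and 1.10 (FDR 1.50e-04), while Cacng5 and Grip1 fell, with -1.01 (FDR 0.00272) and -0.75 (FDR 0.00650), Grip1 not without resting replicate 2 (-0.39, FDR 0.0534). Of 13 NMDA and kainate receptor subunits tested, 3 were higher and 1 lower, a share of rises near the 21.7% of all genes. Grin2b, the NMDA receptor subunit of young neurons, went from 282, 295 and 330.4 to 589, 577 and 588 CPM (0.95, FDR 9.40e-07). Of 17 genes of GABA receptors and gephyrin, 10 were higher and 2 lower in pulldowns and 6 and 2 in inputs, among the genes lower in pulldowns Gphn, the scaffold of inhibitory synapses, with -1.17 (FDR 5.74e-06).

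Footprints of most ribosomal protein genes were lower. Of 86 cytosolic ribosomal protein genes, 82 were tested, 61 were lower, 2 higher and 19 did not pass, with a median of -0.80. The inputs held 25 lower and 1 higher, with a median of -0.35. Among all genes, 26% were lower and 21.7% higher in pulldowns. With the trend of each library with CDS length removed, 37 were lower in pulldowns. Rps6, a target of S6 kinase, stood at 45.8, 39.4 and 36.8 CPM in resting replicates 1 to 3 and at 12.7, 12.7 and 15.3 CPM in DHPG replicates 1 to 3, a log2 fold change of -1.59 (SE 0.18, FDR 2.75e-06). Rpl38 went from 67.5, 75.4 and 72.7 to 24.96, 21.6 and 28.2 CPM (-1.52, FDR 3.04e-07). The resting libraries of both genes lie above all DHPG libraries, where 52.6% of all genes had groups without overlap. The rises were Rpl14 (0.36, FDR 0.00826) and Rpl5 (0.55, FDR 0.0297). Rpl5 lost its call without DHPG or resting replicate 1 or 2 (FDR 0.0823 to 0.122), in the 6 pulldowns alone (FDR 0.0698), with the KCl libraries (FDR 0.141) and over genes with a mean log2 CPM of at least 4 (FDR 0.0523). As a share of CDS counts, ribosomal proteins took 0.273% ± 0.0165 (SD, n = 3) in DHPG and 0.499% ± 0.0787 (SD, n = 3) in resting pulldowns, with an exact two-sided permutation p of 0.1, the smallest that 3 against 3 allow. Genes of this family have near-identical copies, so that single values are uncertain.

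RNA-binding proteins of granules were mostly lower as well. Of 30 RNA granule and transport proteins tested, 18 were lower and 2 higher, with a median of -0.55. Pabpc1, the cytoplasmic poly(A)-binding protein, went from 116, 139.7 and 93.2 to 27.2, 29.0 and 36.3 CPM (log2 fold change -1.92, SE 0.15, FDR 8.72e-08), and Caprin1, a stress granule protein, from 351, 321 and 311 to 149.6, 174 and 183 CPM (-0.96, FDR 1.14e-06). The neuronal Hu proteins Elavl2 and Elavl4 had -1.62 (FDR 9.33e-08) and -0.88 (FDR 6.68e-06). Stau2, which carries dendritic mRNAs, and Cpeb4 rose, with 0.55 (FDR 8.17e-04) and 0.47 (FDR 0.00349). Of 41 initiation factors, 14 were lower, 5 higher and 22 did not pass, beside 26% lower and 21.7% higher of all genes, and in inputs 4 were lower and 10 higher. Eif4g2, which the series targets elsewhere with siRNA, stood at 358, 389 and 319.7 and 365, 377 and 340.4 CPM with overlapping groups (0.02, FDR 0.881).

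Mitochondrially encoded proteins were mostly higher and nuclear-encoded subunits of oxidative phosphorylation mostly lower in pulldowns. Of the 13 proteins encoded by mitochondrial DNA, 12 were higher and 1 did not pass in pulldowns, with a median of 1.58, and all 13 were higher in the inputs, with a median of 1.67. mt-Nd5 stood at 237, 538 and 397 CPM in resting replicates 1 to 3 and at 1939, 1782 and 1199 CPM in DHPG replicates 1 to 3, a log2 fold change of 2.07 (SE 0.36, FDR 0.00110), and mt-Nd6 at 35.5, 54.6 and 35.0 and 190.1, 170.5 and 124 CPM (1.94, FDR 3.24e-05). DHPG replicate 3 was the lowest of its group for both, still above every resting library. Together these genes took 1.37% ± 0.295 (SD, n = 3) of CDS counts in DHPG and 0.493% ± 0.158 (SD, n = 3) in resting pulldowns (exact two-sided permutation p 0.1). Mitochondrial ribosomes are not stopped by cycloheximide. Of 77 nuclear-encoded subunits of oxidative phosphorylation, 48 were lower, 9 higher and 20 did not pass, with a median of -0.57 against -0.09 in the inputs, where 11 were lower and 5 higher. The pulldown count was 31 lower in a fit with the KCl libraries and 27 lower with the trend of CDS length removed. Against the resting siRNA group 18 of these subunits were higher and 13 lower, with a median of 0.03. Ndufb6 of complex I went from 95.1, 115 and 109 to 43.1, 48.0 and 45.5 CPM (log2 fold change -1.22, SE 0.11, FDR 4.34e-07) and Cox7c of complex IV from 17.5, 14.6 and 13.98 to 5.07, 5.65 and 5.26 CPM (-1.54, FDR 1.26e-05). The larger subunits Ndufs1 and Sdha rose, with 0.94 (FDR 9.64e-06) and 0.83 (FDR 1.11e-05). Of 31 nuclear-encoded genes of mitochondrial import and dynamics, 10 were higher and 7 lower, with a median of 0.09. Of all genes tested, 21.7% were higher and 26% lower.

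More genes of folding in the endoplasmic reticulum were lower than higher, beside 26% lower and 21.7% higher of all genes in pulldowns. Of 22 genes of the unfolded protein response and folding in this compartment, 12 were lower, 2 higher and 8 did not pass, with a median of -0.52. In inputs 8 were lower and 1 higher, with a median of -0.17. Hspa5, the chaperone BiP, stood at 807, 994 and 825 CPM in resting replicates 1 to 3 and at 430.4, 478 and 476 CPM in DHPG replicates 1 to 3, a log2 fold change of -0.92 (SE 0.10, FDR 1.66e-06). Its input value was -0.16 (FDR 0.205). Pdia3 went from 498, 499.8 and 434 to 167, 204 and 178 CPM (-1.38, FDR 6.40e-08) and Pdia6 from 311, 315 and 294 to 177, 186 and 191 CPM (-0.73, FDR 6.59e-06). Herpud1, of the pathway that degrades misfolded proteins, rose from 46.1, 80.6 and 67.6 to 166, 159.6 and 166 CPM (1.35, FDR 5.31e-06) and Syvn1, the ubiquitin ligase of the same pathway, had 0.48 (FDR 0.00189, but 0.0793 in a fit with the KCl libraries).

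Most enzymes of cholesterol synthesis were higher, in pulldowns and inputs. The shares of all genes in pulldowns were 21.7% higher and 26% lower. Of 25 genes, 19 were higher, 3 lower and 3 did not pass in pulldowns, with a median of 0.70, and 19 were higher and 2 lower in inputs, with a median of 0.88. Sqle, squalene epoxidase, stood at 443, 415 and 457 CPM in resting replicates 1 to 3 and at 945, 949.9 and 870.2 CPM in DHPG replicates 1 to 3, a log2 fold change of 1.07 (SE 0.09, FDR 1.49e-07). Nsdhl and Dhcr7, of the later steps, had 1.52 (FDR 2.37e-07) and 1.11 (FDR 2.53e-07). The falls included Srebf1 (-0.98, FDR 0.0141) and Pmvk (-0.33, FDR 0.0398). Srebf1 no longer passed without DHPG replicate 1 or resting replicate 1 or 2 (FDR 0.0546 to 0.0701). Pmvk no longer passed with any 1 library but resting replicate 1 left out (FDR 0.0943 to 0.182) and did not keep its direction once the trend with CDS length was removed (0.0041). Neurons and astrocytes both make these enzymes.

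Footprints of most histone genes that cells express during DNA replication were lower. Of 66 tested, 45 were lower and none higher, with a median of -1.005, and the inputs held 35 lower and 2 higher. Among all genes, 26% were lower and 21.7% higher in pulldowns. Hist1h3b stood at 103, 175 and 90.4 CPM in resting replicates 1 to 3 and at 36.3, 30.2 and 39.8 CPM in DHPG replicates 1 to 3, a log2 fold change of -1.80 (SE 0.23, FDR 2.19e-05). Mki67, a marker of cycling cells, went from 59.8, 60.2 and 64.3 to 26.0, 28.5 and 24.2 CPM (-1.22, FDR 8.32e-05), and the progenitor marker Sox2 from 40.5, 81.0 and 30.3 to 10.7, 12.9 and 20.1 CPM (-1.80, FDR 2.63e-04). The groups do not overlap for these 3 genes, as for 52.6% of all genes. Histone genes are near-identical copies, and most markers of progenitors and cell cycle fell beside them as given above.

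**Figure D4:**
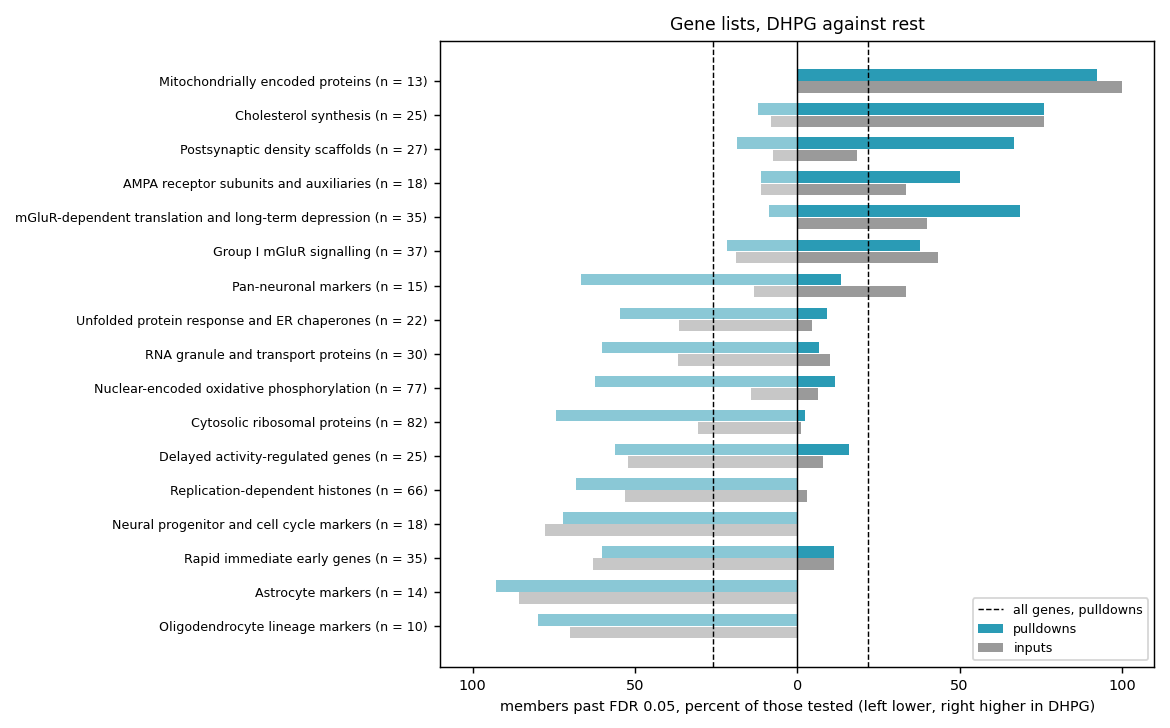
Share of tested members of each gene list past an FDR of 0.05, in percent, lower to the left and higher to the right, for pulldowns and inputs, with dashed lines at the shares of all genes in pulldowns (21.7% and 26%). Mitochondrially encoded proteins and cholesterol synthesis lie furthest to the right and markers of astrocytes furthest to the left, and the bars of postsynaptic scaffolds, pan-neuronal markers and oxidative phosphorylation differ between pulldowns and inputs.

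Whether the pulldown comparison differed from the input comparison was tested in the same fit. At an FDR under 0.05 the difference was higher for 334 genes (2.61%) and lower for 538 (4.21%), and with the replicate as a block, which pairs the input and pulldown of the same number, for 703 and 1103. The count of 872 was 84, 118 or 121 without the input and pulldown of DHPG replicate 1, 2 or 3. Its balance then turned to 58 higher and 26 lower, 63 and 55 or 72 and 49. Pan-neuronal markers differed between the compartments. Of 15, 10 were lower and 2 higher in pulldowns, against 2 lower and 5 higher in inputs, and the difference was lower for 8 and higher for none. The 10 became 5 without DHPG replicate 1, 6 without DHPG replicate 2, 6 without resting replicate 2 and 5 in a fit with the KCl libraries. Snap25 of synaptic vesicle fusion had -0.71 (FDR 4.47e-05) in pulldowns and 0.05 (FDR 0.719) in inputs, and Eno2, neuronal enolase, -0.72 (FDR 7.37e-06) and 0.01 (FDR 0.950). Snap25 lost its pulldown call in the fit with the KCl libraries (-0.66, FDR 0.0785). Of the postsynaptic scaffolds, 8 had a higher and 1 a lower difference.

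The 5 genes named for a difference upwards all had CDSs longer than the median of 1392 bases. Mast4, a relative of Mast1, stood at 55.4, 75.4 and 52.7 CPM in resting and 153, 142 and 152 CPM in DHPG pulldowns, with 1.28 (FDR 2.81e-06) in pulldowns, -0.39 (FDR 0.0424) in inputs and a difference of 1.67 (SE 0.20, FDR 4.94e-04). Nup153, a nucleoporin, had 0.39 (FDR 0.00501) in pulldowns, -0.87 (FDR 1.23e-05) in inputs and a difference of 1.26 (SE 0.15, FDR 4.94e-04). For Ahdc1, Mast1 and Amer3, a membrane protein of Wnt signalling, the differences were 1.37 (FDR 4.94e-04), 1.29 (FDR 4.94e-04) and 1.15 (FDR 4.94e-04). Of the 5 named downwards, several bind RNA or act as adaptors. Ncl, nucleolin, went from 245, 266 and 202 to 91.2, 109 and 96.1 CPM in pulldowns, with -1.27 (FDR 2.87e-07) there, -0.06 (FDR 0.713) in inputs and a difference of -1.21 (SE 0.15, FDR 4.94e-04). Hnrnpd, Ywhae, Bzw1 and Vbp1, which encode an AU-rich element binder, a 14-3-3 adaptor, a regulator of translation and a prefoldin subunit, had differences of -1.13 (FDR 0.00114), -1.05 (FDR 7.51e-04), -1.17 (FDR 4.94e-04) and -1.16 (FDR 0.00122).

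Footprints on 5′ UTRs, where upstream reading frames lie, were compared in the same way. The study reports that DHPG, like KCl, raised the translation of upstream reading frames in dendrites. It took pulldown over input for the frames it had identified. Whole 5′ UTRs were counted here, pulldown against pulldown, so the values below do not test that result. Of 9482 genes tested by their 5′ UTR counts, scaled to CDS counts, 91 were higher (0.96%) and 611 lower (6.44%) in DHPG pulldowns, with a median of -0.37. Scaled to the 5′ UTR counts themselves, 663 were higher and 591 lower, so the direction of the balance depends on the scaling. Without resting replicate 2 the counts were 327 and 331. The total of 702 was 251, 209 and 356 without DHPG replicates 1, 2 and 3, and 1713 without resting replicate 1. The 5′ UTR share of counts in coding transcripts was 5.17% ± 0.861 (SD, n = 3) after DHPG and 7.31% ± 2.40 (SD, n = 3) at rest, with 10.1% in resting replicate 2 (exact two-sided permutation p 0.2). Resting pulldowns with Eif4g2 siRNA, from the same processing run as DHPG, had a mean share of 5.597%. Each of these siRNA libraries lay within the DHPG range of 4.44% to 6.12%, so the lower share was not seen against this group. In inputs the share was 15.3% to 16.45% after DHPG and 16.35% to 22.1% at rest, with overlap. A footprint was counted where its 5′ end lies, so a ribosome that has just started the CDS counts towards the 5′ UTR.

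The 5 named 5′ UTRs that fell belonged to immediate early genes, a pseudokinase and glial factors. Fos had 5′ UTR counts of 313, 235 and 199 in resting replicates 1 to 3 and 47, 81 and 106 in the deeper DHPG replicates 1 to 3, a log2 fold change of -2.93 (SE 0.37, FDR 1.03e-05) relative to CDS depth. Dusp1 had 159, 140 and 60 and 13, 31 and 31 counts (-3.33, SE 0.36, FDR 8.93e-07), and Trib1, the pseudokinase, -3.19 (SE 0.38, FDR 3.27e-06). Olig2 and Olig1, of the oligodendrocyte lineage, had -5.28 (SE 0.57, FDR 8.93e-07) and -3.99 (SE 0.47, FDR 3.12e-06). The CDS of all 5 fell as well, with -1.98 (FDR 2.95e-06) for Trib1, -3.58 (FDR 1.57e-05) for Olig2 and -3.44 (FDR 2.88e-05) for Olig1. Of the rapid immediate early genes, 15 of 32 tested had lower 5′ UTR counts and none higher.

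The named 5′ UTRs that rose belonged to genes of signalling, vesicles and transcription. Hpca, the calcium sensor hippocalcin, had 7, 0 and 0 counts in resting replicates 1 to 3 and 65, 98 and 134 in DHPG replicates 1 to 3, a log2 fold change of 4.44 (SE 0.57, FDR 1.03e-05), against 0.86 (FDR 0.00204) for its CDS. Ntsr1, a neurotensin receptor of deep cortical layers, had 1.64 (SE 0.35, FDR 0.00351) and a CDS value of 2.00 (FDR 3.40e-07). Ldb2, a LIM domain cofactor, had 2.07 (SE 0.42, FDR 0.00242), with 2.72 (FDR 3.12e-06) for the CDS. Syt11, a synaptotagmin, had 1.72 (SE 0.38, FDR 0.00451) in its 5′ UTR while its CDS, at 0.19 (FDR 0.0839), did not pass.

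Genes that the study follows as examples of upstream open reading frames mostly did not pass in this comparison of CDS counts. The study chose them by responses to KCl, some with a falling CDS, and measured many as reporter protein. Of its reporters, those of Cmc4, Lrrc51 and Nsun3 were also tested with DHPG. Stimulus and measure thus differ, and the values below do not test the study's results. Nsun3, a mitochondrial tRNA methyltransferase, stood at 1.04, 0 and 0.932 CPM in resting and 4.00, 4.42 and 3.48 CPM in DHPG pulldowns (2.56, FDR 0.00208), from 8, 0 and 2 counts at rest. Cmc4, at 0, 3 and 1 counts in resting and 4, 5 and 5 in DHPG replicates 1 to 3, had 0.70 (FDR 0.591), and Lrrc51 was too low to test. Over 23 such genes, 21 were tested, 5 were higher, 1 was lower and 15 did not pass, again close to the 21.7% of all genes that were higher. This list came from the study's own results on this series.

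Footprints in 3′ UTRs were more frequent after DHPG. Their share was 4.87% ± 0.571 (SD, n = 3) in DHPG and 2.74% ± 0.592 (SD, n = 3) in resting pulldowns, with no overlap (exact two-sided permutation p 0.1). The difference of 2.13 percentage points was 1.33 when all coding transcripts were counted in place of the longest of each gene. The resting pulldowns with Eif4g2 siRNA, from the same processing run as DHPG, had 5.23% and 5.42%. In inputs the share was 2.16% to 2.26% after DHPG and 1.57% to 1.73% at rest.

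A second resting group was set beside the first after the data had been seen. These 2 resting pulldowns received 20 nM siRNA against Eif4g2 for 72 h. As the labels name no silencing for them either, the 2 h of silencing separates DHPG pulldowns from both resting groups. The siRNA pulldowns share the processing run of the DHPG libraries, so that they carry the knockdown in place of the difference in run. Their marker sums differed from those of DHPG pulldowns too, at 832 and 899.9 against 1856 to 1947 CPM for GABAergic, 78.6 and 96.7 against 23.7 to 27.7 CPM for microglia, 762 and 782 against 188 to 199 CPM for progenitor and 167 and 183 against 38.5 to 45.9 CPM for endothelial markers. Against them 16 of 18 progenitor and 4 of 4 endothelial markers were lower in DHPG pulldowns. Of 10 microglia markers tested, 7 were lower and 1 higher. Against untreated rest only 2 microglia markers were tested. The filter on low counts admits markers that are high in the siRNA libraries alone, so no conclusion is drawn from the microglia calls. The part of these marker differences in the values below was not tested. Eif4g2 was at 265 and 205 CPM in them and at 326, 336 and 299 CPM in DHPG pulldowns (not TMM-scaled). Of 12969 genes tested, 3038 were higher (23.4%) and 3116 lower (24%) in DHPG pulldowns against this group. Both comparisons share the DHPG libraries, so their values are given side by side without a measure of overlap.

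Fos, Grm5 and Col1a1 were called in 1 direction against both resting groups. Fos had -2.75 (FDR 2.72e-15) against the siRNA group and -3.15 against the untreated group, Npas4 -3.54 (FDR 6.08e-16) and -2.66, Arc 1.18 (FDR 8.10e-05) and 1.29, and Grm5 1.07 (FDR 7.89e-12) and 0.99. Scg2 had -2.07 (FDR 5.57e-17) and -2.15, Camk2a 1.49 (FDR 3.39e-14) and 1.89, and Col1a1 -4.08 (FDR 1.63e-14) and -4.78. Other genes did not keep their size or their direction. Map1b was higher against untreated rest (1.41) and lower against the siRNA group (-0.55, FDR 1.17e-10), with 43146 and 44468 CPM (not TMM-scaled) in the latter. Elavl2 had -1.62 and 0.45 (FDR 0.00919), Slc1a2 of astrocytes -1.20 and 0.80 (FDR 2.11e-06), Nup153 0.39 and -3.07 (FDR 8.35e-20), and Gse1 3.07 and 0.57 (FDR 9.70e-06).

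The gene lists differed in the same manner. Against the siRNA group, 20 of 35 rapid immediate early genes were lower and 6 higher, 13 of 14 astrocyte markers were lower and 1 higher, 63 of 82 ribosomal proteins were lower and none higher, and 11 of 13 mitochondrially encoded proteins were higher. The median of the last list was 0.71, where it was 1.58 against untreated rest, and these genes took 0.997% and 0.895% of CDS counts in the siRNA group. The list of mGluR-dependent translation held 20 higher and 5 lower. The postsynaptic scaffolds, with 18 higher and 5 lower against untreated rest, held 10 higher and 7 lower, and their median went from 0.60 to 0.09. The nuclear-encoded subunits of oxidative phosphorylation held 18 higher and 13 lower, with a median of 0.03, and pan-neuronal markers 9 higher and 2 lower. Motor genes, with 4 higher and 9 lower against untreated rest, held 12 higher and 1 lower, genes of synaptic vesicles went from 7 higher and 10 lower to 21 and 3, and GABAergic markers from 3 higher and 4 lower to 8 and none. For these 6 lists, and not necessarily for them alone, the balance depended on which resting group was used.

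Fold changes of the pulldown comparison also followed the length of the CDS. The fifth of genes with the shortest CDSs, of a median of 486 bases, had a median log2 fold change of -0.42, and the fifth with the longest, of a median of 3574.5 bases, of 0.21. Across genes, which are not independent replicates, Spearman's rho was 0.25 in pulldowns, 0.01 in inputs, 0.38 for their difference and 0.06 against the siRNA group. For GC content it was -0.02 in pulldowns. Once the trend of a library with CDS length was taken out, the scaffolds held 15 higher and 5 lower, and 404 genes passed in the difference of the comparisons.

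**Figure D5:**
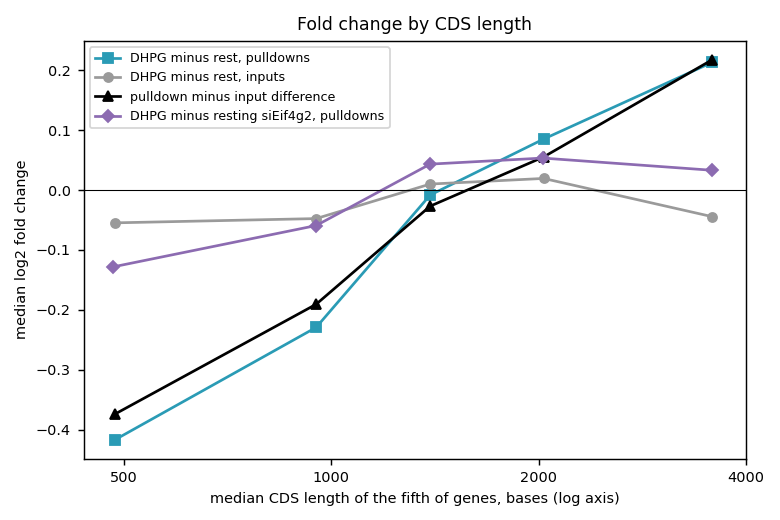
Median log2 fold change of 5 equal groups of genes by CDS length (log axis, bases) for DHPG minus rest in pulldowns, in inputs, for the difference of both and for DHPG minus the resting siRNA group. The pulldown line climbs from -0.42 to 0.21 and the line of the difference from -0.37 to 0.22, while the input line stays between -0.05 and 0.02.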

How the data were processed

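Ribosome footprints were measured in pulldowns and inputs. Per the file headers and the study's methods, the authors trimmed reads, cut unique molecular identifiers, aligned to mm10 with Rsubread, removed duplicates and deposited counts of read 5′ ends per CDS or UTR segment for each library, unpooled. The RPKM column that the authors deposited beside the counts was not used. Segment counts were summed here over the longest transcript of each of 22443 genes (99.27% of 67238 coding transcripts matched). The CDS counts of all 12 libraries, 3 in each of 4 groups, were fitted without a block by edgeR 4.0.16 (filterByExpr, TMM, quasi-likelihood test, robust, Benjamini-Hochberg FDR under 0.05) in R 4.3.3. 5′ UTR counts were fitted in the same 12 libraries with CDS library sizes, and tested between the pulldowns. Shares were compared by exact permutation (SciPy 1.17.1), whose p cannot fall below 0.1 here.

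Genes were named by rule. The 12 smallest p-values per direction were taken among genes past the FDR with a log2 fold change of at least 1 either way, a mean log2 CPM of at least 3 and no overlap, with 5 for the other comparisons, up to 4 per direction in each of 52 lists. Members and lists were chosen with earlier results of these data known. By the protocol, the input and pulldown of 1 replicate come from 1 culture, which the labels do not state. Their deviations correlated at 0.60, 0.38 and 0.41 at rest and -0.13, 0.04 and -0.18 after DHPG. Alternatives included DESeq2 1.42.0, limma 3.58.1, other filters, scalings and transcripts, and each library left out. A few genes that the rule picks are not reported here. Pan-TurboID libraries and knockdown libraries after KCl were not used.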

Additional observations from a re-analysis of the deposited data

Results flagged for a closer look

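The 10 genes named for a difference between the pulldown and the input comparison were singled out because the same contrast, DHPG minus rest, gave different values in both compartments by the test of the difference itself. On the log2 scale the difference was 1.29 for Mast1, 1.26 for Nup153, 1.15 for Amer3, 1.37 for Ahdc1 and 1.67 for Mast4. It was -1.21 for Ncl, -1.17 for Bzw1, -1.05 for Ywhae, -1.13 for Hnrnpd and -1.16 for Vbp1. Against the resting siRNA group the pulldown values were 0.97 (FDR 1.71e-10) for Mast1, -3.07 (FDR 8.35e-20) for Nup153, -0.07 (FDR 0.522) for Amer3, 1.14 (FDR 7.17e-11) for Ahdc1 and 0.61 (FDR 1.98e-05) for Mast4. They were -1.57 (FDR 1.11e-13) for Ncl, -0.46 (FDR 8.93e-05) for Bzw1, -0.36 (FDR 1.96e-04) for Ywhae, -0.79 (FDR 1.25e-06) for Hnrnpd and -0.36 (FDR 0.0372) for Vbp1. The groups hold 3 libraries, so no single library was tested as an outlier.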

How the results depend on the processing

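The pulldown comparison called 6100 genes and moved past 1.5 times only with the KCl libraries in the fit (4046, of which 1993 higher and 2053 lower) and when tested against a fold change of 1.5 (2165). Leaving out 1 library at a time gave 4883 to 6216 calls. The inputs gave 2897 to 3897, the comparison with the resting siRNA group 5337 to 5933 (6154 with all libraries) and its inputs 3731 to 4281 (5227 with all libraries, 2933 higher and 2294 lower), and DHPG against KCl 4305 to 6659. The 1686 calls of KCl against rest ranged from 1067 without resting replicate 1 (1117 without replicate 3) to 2831 without KCl replicate 1. The 872 genes whose difference between pulldown and input passed became 1312 with DESeq2 and 404 with a CDS length offset. They became 84 to 1128 with the input and pulldown of 1 replicate left out together. Without any 1 DHPG replicate more calls were higher than lower. The 702 calls in 5′ UTRs became 1254 with library sizes of the 5′ UTR counts, 1183 with the likelihood ratio test and 209 to 1713 with 1 library left out. The causes were not tested.

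The replicate as a block between input and pulldown gave 1806 calls of the difference. Numbers did not pair DHPG with resting pulldowns, with correlations of deviations of 0.15, -0.09 and -0.10. A block by replicate number gave 6179 calls in pulldowns, 4407 in inputs, 753 in 5′ UTRs and 5638 against the siRNA group.

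With 1 library left out, the DHPG minus rest difference of the 5′ UTR share ran from -3.02 to -0.77 percentage points and of the 3′ UTR share from 1.85 to 2.47 (1.33 over all coding transcripts). It ran from 0.768 to 1.05 for mitochondrially encoded proteins, from -0.261 to -0.184 for ribosomal proteins, from -0.232 to -0.120 for histones and from -0.120 to -0.0339 for Dlg4. Values that changed sign were Pmvk with the length offset (0.0041), Cmc4 without resting replicate 1 (-0.22 to 2.00 over the libraries left out) and Eif4g2 with a mean log2 CPM of at least 4 (-0.063), the transcript with the highest count (-0.0028), the length offset (-0.14) and without resting replicate 3 (-0.042 to 0.12 over the libraries left out). Of the other values of single genes, 2415 kept direction and side, 77 no longer passed and 4, all of Dlg4, newly passed. Of the counts in lists, 286 stayed within 1.5 times and 20 moved. Limma-voom, which called 5594 genes in pulldowns with 1 variance per group, and the siRNA comparison were chosen after seeing the data. Resting replicate 3, with 2047169 CDS counts, limits the precision of low genes, and counting intervals would cover counting error only.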

Other observations

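Of the ion channel genes, more rose than fell in pulldowns and inputs. Of all genes, 21.7% were higher and 26% lower in pulldowns, and 16.3% and 16.5% in inputs. Of 37 potassium channel genes, 18 were higher and 5 lower in pulldowns, with a median log2 fold change of 0.41, and 15 and 2 in inputs, with a median of 0.38. Kcnip1, a subunit of A-type channels, had -1.69 (FDR 0.00270). Of 22 sodium and calcium channel genes tested, 12 were higher and 1 lower. Cacna1e, the R-type calcium channel, went from 222, 185 and 210.2 to 655, 627 and 598 CPM (1.61, FDR 4.28e-08).

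Enzymes that charge tRNAs and targets of the integrated stress response were among the lists with few falls. Beside them stand 21.7% higher and 26% lower of all genes in pulldowns, and 16.3% and 16.5% in inputs. Of 20 cytosolic tRNA synthetases, 12 were higher and none lower in pulldowns, and 10 and none in inputs. Lars went from 278, 241 and 296 to 613, 619.7 and 546 CPM (1.13, FDR 6.17e-07) and Iars from 176, 142 and 144 to 334, 340.0 and 296 CPM (1.06, FDR 1.02e-06). Of 25 targets of the integrated stress response tested, 11 were higher and 1, Phgdh of serine synthesis, was lower (-1.03, FDR 0.00259). Asns, asparagine synthetase, had 1.08 (FDR 2.66e-06) and Chac1, which degrades glutathione, 1.96 (FDR 9.84e-05). Against the resting siRNA group, 22 of these 25 were higher and 1 lower. Of 15 genes of fatty acid synthesis and biotin-dependent carboxylases, 8 were higher and none lower, Fasn with 1.00 (FDR 6.83e-07).

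Cytoskeletal genes split. Of 27 genes of microtubules and their associated proteins, 18 were higher and 4 lower in pulldowns, and 19 and none in inputs. Tubb3, neuronal beta-tubulin, went from 2817, 2342 and 2501 to 6056, 5863 and 6061 CPM (1.23, FDR 4.18e-07). Map2, the dendritic microtubule protein, went from 2193, 2593 and 1962 to 1098, 1208 and 1221 CPM (-0.94, FDR 2.46e-06) while its input value was -0.14 (FDR 0.314). Mapt, tau, had -0.76 (FDR 4.43e-05) in pulldowns and 0.18 (FDR 0.222) in inputs. Of 24 motor genes, 4 were higher and 9 lower in pulldowns against 8 and 1 in inputs, with Dync1h1, the dynein heavy chain, at 1.25 (FDR 1.90e-07) and Dctn2 at -1.05 (FDR 5.28e-06). Against the resting siRNA group 12 motor genes were higher and 1 lower, with a median of 0.22. Of 35 genes of synaptic vesicles and active zones, 7 were higher and 10 lower, shares near the 21.7% and 26% of all genes, Unc13a with 0.97 (FDR 1.41e-06) and Cplx1 with -1.25 (FDR 4.60e-06). Against the siRNA group 21 were higher and 3 lower, with a median of 0.46. Of 21 genes of CaMKII and calcium-calmodulin signalling, 10 were higher and 7 lower, beside 21.7% and 26% of all genes. Itpka, an inositol kinase of spines, had 1.92 (FDR 2.32e-04) and Rcan1, an inhibitor of calcineurin, -1.23 (FDR 1.50e-05).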
